A study of Mus musculus with 18 samples.

Results

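The leukocyte integrins and adhesion molecules described here are 10 genes chosen by name, out of 38887 genes with a value in every library. They are the integrin alpha chains Itgam, Itgal, Itgax, Itga4, Itga5 and Itgav, the integrin beta chains Itgb1 and Itgb2, and the adhesion ligands Icam1 and Vcam1. The choice used no threshold on a measured value but was made with earlier results of these data known. All 10 passed the filter on low counts in every comparison. RNA was sequenced from bone marrow-derived macrophages (BMMs), which are macrophages grown from bone marrow with the growth factor M-CSF, of female C57BL/6J mice. There were 3 genotypes, each untreated and treated for 4 h with LPS (lipopolysaccharide, from the bacterial outer membrane, which activates macrophages) at 100 ng/ml, with 3 libraries per group and 18 in all. The study addressed what the glucocorticoid-induced leucine zipper (GILZ), encoded by Tsc22d3, does in macrophages.

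WT libraries came from Lyz2-Cre mice, in which Cre recombinase is expressed from the myeloid Lyz2 locus. GILZ KO mice carried the same Cre and loxP sites around Gilz exon 6, and GILZ TG mice carried the same Cre and a Gilz cDNA in the ROSA26 locus behind a stop cassette flanked by loxP sites. By the study's methods all 3 genotypes carried this Cre allele, and loss or overexpression of GILZ was directed to cells that use the Lyz2 promoter. The Lyz2 levels below show that WT did not match the other genotypes at this locus. Per the study's legends each group held 3 mice. The ages of the mice behind single libraries are not given in the sources used here, and whether the untreated and the LPS library with the same number came from one mouse is not stated in the labels.

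Integrins are pairs of one alpha and one beta chain that hold cells to other cells and to the extracellular matrix. Itgb2 pairs with Itgam (CD11b, together Mac-1), Itgal (CD11a, together LFA-1) and Itgax (CD11c), and these β2 integrins are found on leukocytes, where they bind Icam1 and complement fragments. Itgb1 pairs with Itga4 to form VLA-4, which binds Vcam1 and fibronectin, with Itga5 to form the classical fibronectin receptor, and with Itgav, which also pairs with other beta chains. Icam1 and Vcam1 are known as inducible ligands at sites of inflammation, and the activity of integrins is also set by inside-out signals that act on the chains already at the surface. RNA levels therefore do not give surface levels or binding activity.

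In the GRCm38 mouse genome, with the GENCODE annotation of that build, Itgam lies at chr7:128062640-128118491 and Itgax follows it at chr7:128129547-128150657, both on the plus strand. Itgal lies on the same chromosome at chr7:127296260-127335138. The other members are Itga4 (chr2:79255426-79333123), Itgav (chr2:83724397-83806916), Itgb1 (chr8:128685654-128733200), Icam1 (chr9:21015985-21028817), Itgb2 (chr10:77530252-77565708), Itga5 (chr15:103344286-103366763) and Vcam1 (chr3:116109949-116129688), of which Itga5 and Vcam1 are on the minus strand. The counts are those of whole genes, summed over transcripts. Counts of 8 members were whole numbers in every library. Those of Itgam and Itgax had a fractional part in 15 and 3 libraries, of at most 0.02 and 0.27 reads, which does not give the number of reads shared with other genes. Itgam overlaps the protein-coding gene Gm49368 on the same strand, so its counts are uncertain to that extent. Itga4, Itgav, Icam1 and Vcam1 overlap genes on the other strand. Of those with a value here, Cerkl, which overlaps Itga4, reached at most 3.76 TPM and the 2 genes that overlap Itgav at most 0.04 TPM. The libraries were made with a directional kit, but the strand setting of the counting is not given in the sources used here.

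The stretches before the start of Icam1, the most abundant member after LPS, and of Itgax, the member called in both treatments between genotypes, are shown because the results turn on these genes. They are taken from RefSeq (GRCm38.p6). The Icam1 stretch ends at the base before the RefSeq start, which lies before the start in GENCODE. The Itgax stretch is cut at the base before the start in GENCODE, which lies before the RefSeq start, so 247 of its 250 bases are shown. RefSeq windows were found for 7 of the 10 members and not for Itgal, Itgb2 and Vcam1. Both genes are on the plus strand, and the stretches run 5′ to 3′ with matches to a searched motif in capitals. The first is chr9:21015690-21015939 and the second is chr7:128129300-128129546.
Icam1: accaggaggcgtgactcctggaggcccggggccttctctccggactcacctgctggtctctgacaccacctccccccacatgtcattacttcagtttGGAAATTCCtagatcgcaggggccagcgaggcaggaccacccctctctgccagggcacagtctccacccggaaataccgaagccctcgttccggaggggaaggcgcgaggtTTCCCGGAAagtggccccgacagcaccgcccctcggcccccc
Itgax: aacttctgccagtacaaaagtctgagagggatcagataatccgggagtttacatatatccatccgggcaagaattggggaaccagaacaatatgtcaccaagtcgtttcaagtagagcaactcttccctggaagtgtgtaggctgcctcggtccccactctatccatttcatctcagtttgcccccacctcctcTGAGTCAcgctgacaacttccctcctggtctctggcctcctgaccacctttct

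Searched on both strands were the κB motif GGAAATTCC, the GAS motif TTCNNNGAA, the AP-1 motif TGANTCA, an ISRE motif of 2 GAAA units with 2 bases between them and an ETS motif GAGGAAG, which are known as binding motifs of NF-κB, STAT, AP-1, IRF and ETS factors. Icam1 held the κB motif 153 bases and the GAS motif 42 bases before the start. The κB letters stood in 0.286% and the GAS letters in 7.02% of 32851 mouse promoter windows. Itgax held the AP-1 motif 56 bases before the RefSeq start, which is past the end of the stretch shown. This motif stood in 6.75% of all windows. The ETS motif stood before Itgam (84 bases) and Itgav (8 bases) and in 10.6% of all windows, and the ISRE motif, found in 2.98% of windows, stood before none of the 7. These matches are descriptions of letters, not of bound factors.

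The total of expected counts was between 14583055 and 38557029 reads per library. Levels are given as TPM, which is scaled by transcript length and by the total of a library and can be compared between genes. Untreated WT libraries had 15.8, 14.9 and 18.8 TPM of Tsc22d3, GILZ KO libraries 1.89, 2.81 and 2.31 TPM and GILZ TG libraries 155.9, 159.8 and 152 TPM. With LPS these were 4.56, 5.81 and 5.09 TPM, 2.96, 3.28 and 2.5 TPM, and 127, 140.6 and 127 TPM, so the genotypes did not overlap in either treatment. The contrast of GILZ KO with WT was small after LPS, where WT was itself low. For Tsc22d3 it was -2.74 ± 0.14 on the log2 scale without treatment (adjusted p = 2.16e-05 from edgeR). After LPS it was -0.69 ± 0.14 (0.62-fold, adjusted p = 0.15 from edgeR) and was not called. Lyz2, the gene into which Cre is inserted, was at 6766 TPM or more in every WT library and at 70.2 TPM or less in every GILZ KO and GILZ TG library. Every comparison with WT thus also differs in Lyz2 and may differ in the dose of Cre, and these cannot be told apart from the effect of GILZ. Of 9 macrophage markers all were detected in every group, and without Lyz2 their summed level was 3600 to 4790 TPM. GILZ TG replicates 1 and 2 stood apart with and without LPS. The sum of 10 stromal fibroblast markers was 120 to 170 TPM in these 4 libraries and 9.13 to 31.9 TPM in the other 14, including GILZ TG replicate 3 (15.5 and 16.4 TPM). The sum of 7 B cell and plasma cell markers was 81.7 to 158 TPM against 16.8 to 36.1 TPM, and that of 8 neutrophil markers 77.8 to 215 TPM against 9.17 to 36.7 TPM. Values that rest on these libraries are given with and without them. In bulk RNA, fewer cells of a type and less RNA per cell cannot be told apart.

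In untreated WT BMMs the β2 chain Itgb2 had the highest level of the 10 genes (793 ± 59.3 TPM, SD, n = 3), followed by Itgb1 (413 ± 33.1 TPM) and Itgam (385 ± 15.8 TPM), which overlapped. Itga5 stood at 187 ± 23.4 TPM, Icam1 at 141 ± 10.7 TPM and Itgav at 110.4 ± 22.6 TPM, of which Icam1 and Itgav overlapped. Itga4 (22 ± 3.01 TPM), Itgal (7.33 ± 0.538 TPM) and Itgax (5.43 ± 1.42 TPM) were low, and Vcam1 was at 0.617 ± 0.0945 TPM. Itgal and Itgax overlapped in WT. GILZ KO had the same order of means, and in GILZ TG Itgax (16.1 ± 5.23 TPM) stood above Itgal (7.78 ± 1.55 TPM) without overlap. After LPS Icam1 was the most abundant member in all 3 genotypes, with a mean of 897 ± 18.4 TPM for WT, of 946 ± 27.2 TPM for GILZ KO and of 1127 ± 44.8 TPM for GILZ TG. Itgax was then the lowest, and Vcam1 moved from the last place to the level of Itgal, with which it overlapped in WT and GILZ KO but not in GILZ TG.

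**Figure D1:**
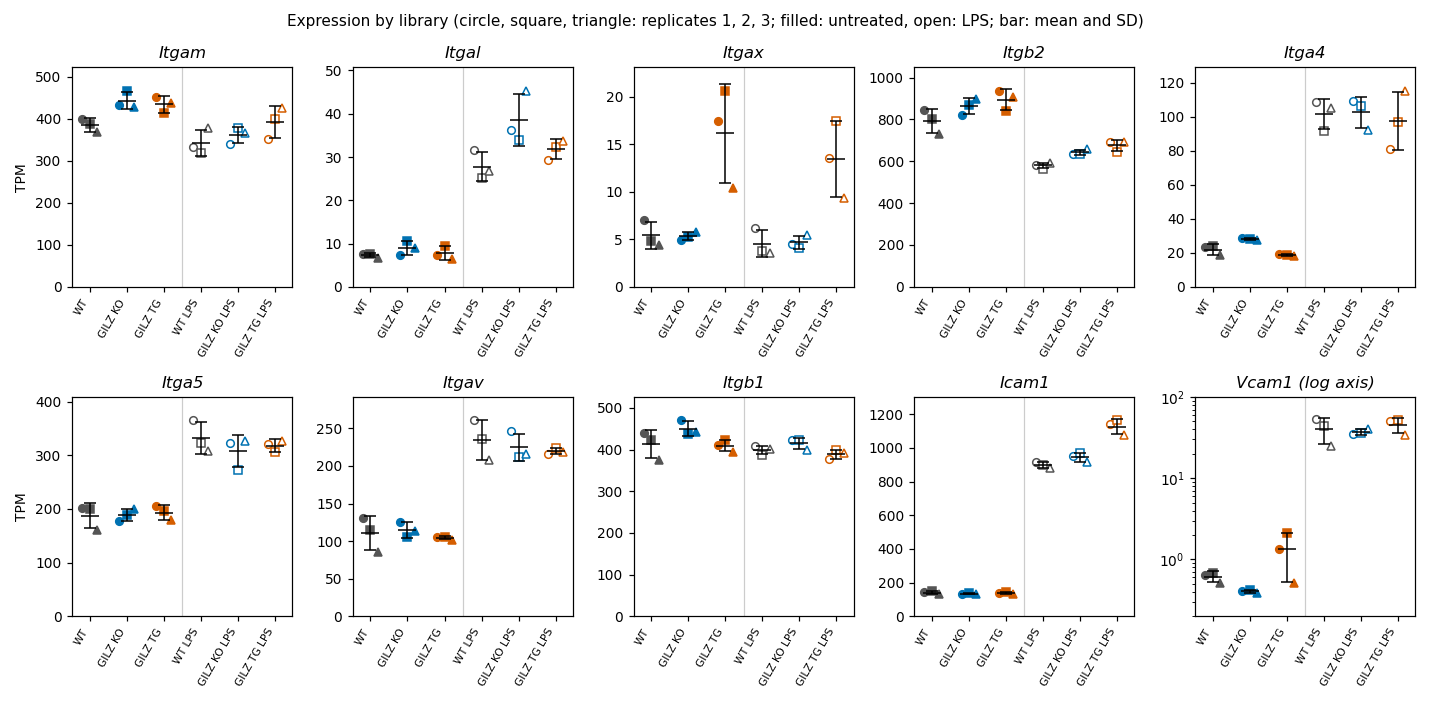
Level of each member in TPM (y axis, linear from 0 except for Vcam1, which has a log axis) in the 6 groups (x axis), with 1 point per library (circle, square and triangle for replicates 1, 2 and 3, filled without and open with LPS) and the mean ± SD as bars. Icam1, Vcam1, Itgal, Itga4, Itga5 and Itgav are higher in every LPS library than in any untreated library, and Itgax is highest in the GILZ TG libraries with and without LPS.

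LPS raised the ligands Icam1 and Vcam1 and the alpha chains Itgal, Itga4, Itga5 and Itgav in each genotype, on every scale used. In edgeR's quasi-likelihood test on TMM-normalised counts, 9 of the 10 members passed an adjusted p-value (Benjamini-Hochberg) of 0.05 in WT, in GILZ KO and in GILZ TG, all of them higher after LPS, and Itgax did not pass. On log2(TPM + 1) limma called 8, 8 and 7 members, and of these Itgb2 was lower after LPS in all 3 genotypes (adjusted p = 3.12e-06, 5.52e-06 and 9.99e-06) and Itgam lower in WT (adjusted p = 0.0462) and GILZ KO (adjusted p = 0.00194), while the other 6 were higher. Among 13169 genes tested, edgeR called 33.5% higher in WT, 33.2% in GILZ KO and 33.6% in GILZ TG, and 35.1% lower in WT. On log2(TPM + 1) limma called 81%, 81.4% and 80.8% of these genes in either direction. Its counts of members are thus near the share of all genes. Of its calls over all genes 19.8%, 18.8% and 19.3% were higher after LPS. The median log2 fold change of the members was 1.59 in WT, 1.46 in GILZ KO and 1.58 in GILZ TG, against -0.02 over all genes tested. As the members were chosen with earlier results of these data known, this contrast with all genes is a description and not a test. The 3 LPS comparisons each have their own untreated libraries.

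The size of these changes depends on the scale, which matters for 4 members. On TMM-normalised counts the median gene changed by -0.02 on the log2 scale. On log2(TPM + 1) the median gene was lower after LPS by 0.51 to 0.52 (WT -0.51, GILZ KO -0.52, GILZ TG -0.51), and on counts scaled to library totals by 0.66 to 0.70 (WT -0.70, GILZ KO -0.66, GILZ TG -0.69). The split of calls moved with it. In WT 4415 of 9037 called genes were higher after LPS on TMM-normalised counts, 2114 of 10670 on log2(TPM + 1) and 2100 of 11090 on library totals. Itgam, Itgax, Itgb1 and Itgb2 had positive log2 fold changes with TMM and negative ones on the other scales, so their direction is not fixed by these data, and they are described relative to the median gene. Which scale is closer to the RNA content per cell was not tested.

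Icam1, the ligand of the β2 integrins, was at 142, 151 and 129 TPM in untreated WT and at 916, 897 and 879 TPM after LPS. In GILZ KO it went from 135, 138 and 130.4 TPM to 952, 969 and 916 TPM, and in GILZ TG from 136, 145 and 134 TPM to 1141, 1164 and 1077 TPM. Every LPS library was above every untreated library, and the 3 GILZ TG libraries were above all 6 others after LPS. The log2 fold change was 3.30 ± 0.06 (SE) in WT (9.88-fold, adjusted p = 4.79e-17 from edgeR), 3.45 ± 0.06 in GILZ KO (10.9-fold, adjusted p = 4.90e-17) and 3.66 ± 0.06 in GILZ TG (12.6-fold, adjusted p = 2.30e-17). With 28583 or more reads per WT library after LPS, counting error was small for this gene.

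Vcam1, the ligand of VLA-4, was close to the limit of detection in untreated cells. WT had 0.65, 0.69 and 0.51 TPM, GILZ KO 0.41, 0.42 and 0.39 TPM and GILZ TG 1.35, 2.14 and 0.52 TPM, from 15 to 116 reads per library. After LPS WT had 53.2, 43.9 and 25 TPM, GILZ KO 35.1, 36 and 40.2 TPM and GILZ TG 49.9, 52.7 and 34.5 TPM. The 9 LPS libraries of the 3 genotypes overlapped, whereas GILZ TG replicates 1 and 2 were the highest untreated libraries. The log2 fold change was 6.67 ± 0.36 in WT (adjusted p = 2.58e-11 from edgeR), 7.13 ± 0.39 in GILZ KO (adjusted p = 3.97e-11) and 5.69 ± 0.33 in GILZ TG (adjusted p = 6.73e-11). Without GILZ TG replicates 1 and 2 the value in GILZ TG was 6.72.

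Of the β2 alpha chains, Itgal rose. It was at 7.57, 7.7 and 6.71 TPM in untreated WT and at 31.5, 25.2 and 26.7 TPM after LPS. GILZ KO went from 7.41, 10.7 and 9.02 TPM to 36.3, 33.9 and 45.3 TPM, and GILZ TG from 7.44, 9.47 and 6.42 TPM to 29.3, 32.3 and 33.8 TPM. The log2 fold changes of 2.57 ± 0.15 in WT, 2.73 ± 0.15 in GILZ KO and 2.67 ± 0.15 in GILZ TG (5.92-, 6.64- and 6.38-fold, adjusted p = 1.01e-10 or less from edgeR) differed by less than their standard errors added together. The untreated and LPS libraries did not overlap in any genotype.

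Itgam, the alpha chain of Mac-1, was the abundant partner of Itgb2 with and without LPS. Its TPM was 368 to 399.6 in untreated and 318 to 378 in LPS-treated WT, 429 to 466 and 339.9 to 377 in GILZ KO, and 413 to 452 and 351 to 425 in GILZ TG. Groups overlapped in WT and GILZ TG and not in GILZ KO. Itgam exceeded the median gene by 0.45 in WT, 0.36 in GILZ KO and 0.51 in GILZ TG on TMM-normalised counts and by 0.34, 0.22 and 0.36 on log2(TPM + 1), but its own log2 fold change was 0.43, 0.34 and 0.49 on the first scale (adjusted p = 0.00103 or less from edgeR) and -0.17, -0.29 and -0.15 on the second. Itgb2, the shared β2 chain, was at 729 to 847 TPM in untreated and 565 to 591 TPM in LPS-treated WT, at 824 to 899.9 and 635 to 658 TPM in GILZ KO, and at 839 to 936 and 644 to 694 TPM in GILZ TG. Its TPM was lower in every LPS library than in any untreated library. Relative to the median gene it was higher by 0.21, 0.24 and 0.26 on TMM-normalised counts and by 0.06, 0.09 and 0.11 on log2(TPM + 1), while its log2 fold change was 0.19, 0.22 and 0.24 with TMM (adjusted p = 0.0169, 0.00616 and 0.00382 from edgeR) and -0.45, -0.43 and -0.40 on log2(TPM + 1). The TMM call of Itgb2 was lost without untreated WT replicate 2 (adjusted p = 0.0925) or 3 (adjusted p = 0.196), untreated GILZ KO replicate 1 (adjusted p = 0.0612) or untreated GILZ TG replicate 2 (adjusted p = 0.0562).

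Itgax, the CD11c chain, did not pass in any genotype in the fit of all 18 libraries without a replicate block. In an edgeR fit of only the 6 libraries compared it passed in GILZ KO (0.44, adjusted p = 0.00421). It was at 7.05, 4.86 and 4.39 TPM in untreated and 6.19, 3.81 and 3.61 TPM in LPS-treated WT, at 4.92, 5.25 and 5.77 and then 4.46, 4.11 and 5.43 TPM in GILZ KO, and at 17.4, 20.6 and 10.4 and then 13.6, 17.4 and 9.36 TPM in GILZ TG. Untreated and LPS libraries overlapped in every genotype, although the TPM was lower after LPS in all 9 pairs with the same number. The log2 fold change was 0.38 ± 0.26, 0.45 ± 0.27 and 0.37 ± 0.24 with TMM (adjusted p = 0.214, 0.155 and 0.183 from edgeR) and -0.22, -0.16 and -0.24 on log2(TPM + 1). A further fit had each genotype and replicate number as a block, which takes the untreated and LPS libraries of a number as paired. In it edgeR called Itgax higher in all 3 genotypes, at 0.367, 0.448 and 0.375 with TMM (adjusted p = 0.0014, 0.000505 and 0.000378), the opposite direction to its TPM.

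Among the alpha chains that pair with Itgb1, Itga4 of VLA-4 rose most in TPM ratio. It was at 23.4, 24 and 18.5 TPM in untreated WT and at 109, 91.5 and 105 TPM after LPS. GILZ KO went from 28.7, 28.2 and 27.4 TPM to 109.5, 106 and 92.3 TPM, and GILZ TG from 19.4, 18.7 and 18 TPM to 81.1, 97.3 and 115 TPM. Before LPS the 3 GILZ KO libraries were above all others and GILZ TG overlapped with the lowest WT library, and after LPS all 3 genotypes overlapped. In edgeR the response was 2.78 ± 0.11 on the log2 scale in WT, 2.45 ± 0.11 in GILZ KO and 2.93 ± 0.11 in GILZ TG (6.86-, 5.46- and 7.60-fold, adjusted p = 1.55e-12 or less from edgeR).

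Itga5 of the fibronectin receptor lay between 160 and 205 TPM in the 9 untreated libraries and between 273 and 365 TPM in the 9 LPS libraries. Itgav, the αv chain, lay between 85.9 and 130.4 TPM and between 208 and 261 TPM. In both genes the untreated and LPS libraries did not overlap. The log2 fold changes were 1.46 ± 0.09, 1.34 ± 0.09 and 1.35 ± 0.09 for Itga5 and 1.72 ± 0.13, 1.58 ± 0.13 and 1.80 ± 0.13 for Itgav in WT, GILZ KO and GILZ TG (adjusted p = 9.35e-09 or less from edgeR). Itgb1, their beta chain, was nearly level in TPM, at 376 to 439 and then 388 to 408 TPM in WT, 437 to 470.1 and then 399.6 to 423 TPM in GILZ KO, and 395 to 423 and then 377 to 399 TPM in GILZ TG. Relative to the median gene Itgb1 was higher by 0.60, 0.54 and 0.58 on TMM-normalised counts and by 0.46, 0.40 and 0.44 on log2(TPM + 1), with log2 fold changes of 0.58, 0.52 and 0.56 (adjusted p = 1.70e-07 or less from edgeR) and of -0.05, -0.12 and -0.07, respectively.

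**Figure D2:**
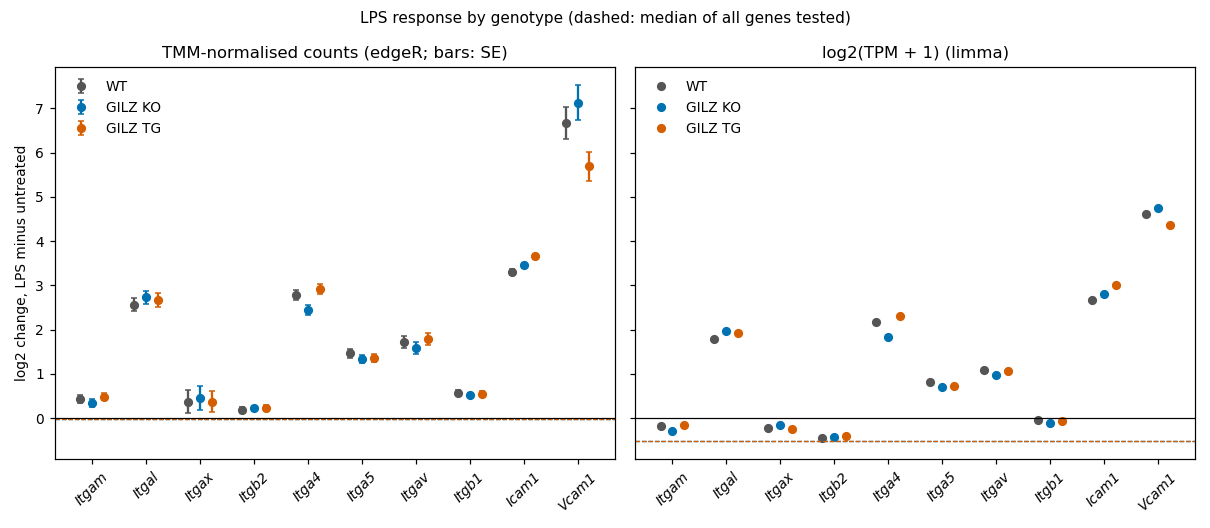
Log2 change of each member from untreated to LPS in WT, GILZ KO and GILZ TG (y axis), on TMM-normalised counts with standard errors (left) and on log2(TPM + 1) (right), with the median of all genes tested as dashed lines (-0.02 on the left, -0.51 to -0.52 on the right). The 6 members Itgal, Itga4, Itga5, Itgav, Icam1 and Vcam1 are above 0 on both scales, whereas Itgam, Itgax, Itgb1 and Itgb2 are above 0 on the left and below 0 on the right.

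The alpha chains were also compared with each other inside a library, which does not depend on the scaling between libraries. Of the summed TPM of Itgam, Itgal and Itgax, Itgam held 96.8% ± 0.307 (SD, n = 3) in untreated WT and 91.3% ± 1.42 after LPS. The share of Itgal went from 1.84% ± 0.0783 to 7.44% ± 1.01 in WT, from 1.97% ± 0.28 to 9.52% ± 1.35 in GILZ KO and from 1.7% ± 0.382 to 7.29% ± 0.141 in GILZ TG. The share of Itgax was 1.36% ± 0.3 and 1.22% ± 0.408 in WT, 1.16% ± 0.118 and 1.15% ± 0.156 in GILZ KO, and 3.53% ± 1.18 and 3.11% ± 0.984 in GILZ TG. In GILZ TG replicate 3 alone it was 2.29% and 2%, above every WT and GILZ KO library (at most 1.7%).

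Of the summed TPM of Itga4, Itga5 and Itgav, Itga4 held 6.89% ± 0.248 in untreated WT, 8.49% ± 0.368 in GILZ KO and 5.9% ± 0.0982 in GILZ TG, and none of the 3 groups overlapped. On expected counts, which are not scaled by length, these shares were 13.6%, 15.6% and 12.2%. After LPS it held 15.3% ± 1.5, 16.2% ± 1.71 and 15.3% ± 2.17 (26.7%, 27.2% and 26.8% on expected counts), and all 3 groups overlapped on TPM. Itga5 went down from 58.8% ± 1.98 to 49.7% ± 0.0825 in WT, from 56.9% ± 2.86 to 48.4% ± 2.73 in GILZ KO and from 61.1% ± 1.17 to 50.1% ± 1.71 in GILZ TG, and Itgav stayed between 33% and 35.4% in all 6 group means. The exact two-sided permutation test of 3 against 3 libraries cannot go below p = 0.1. Of 54 such comparisons of shares between genotypes or treatments, 23 had groups that did not overlap and reached this smallest p, and the smallest Benjamini-Hochberg value was 0.235. The ratio of each beta chain to the 3 alpha chains counted here was lower after LPS in every genotype. In WT Itgb2 over Itgam, Itgal and Itgax went from 1.99 ± 0.0625 to 1.55 ± 0.0951. Itgb1 over Itga4, Itga5 and Itgav went from 1.3 ± 0.102 to 0.599 ± 0.0458. The groups did not overlap in either case. Itgav has other beta chains as partners, and other alpha chains were not counted. Among these, Itga6 fell from 162 ± 13.6 to 48.3 ± 3.07 TPM in WT, so the size of the Itgb1 change depends on the chains chosen.

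**Figure D3:**
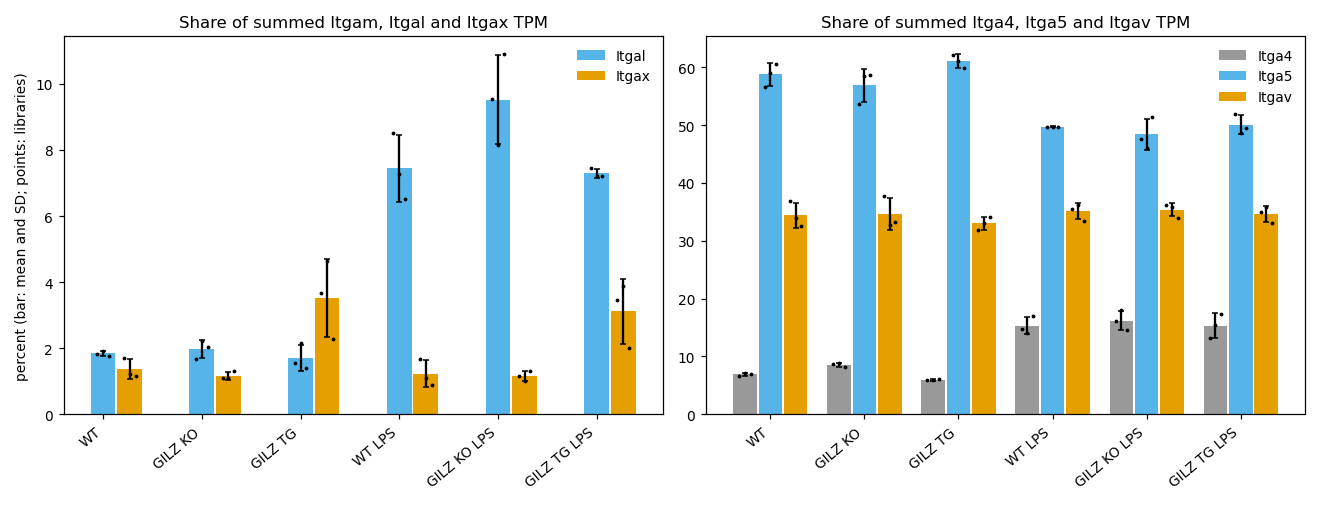
Share in percent (y axis, from 0) of Itgal and Itgax in the summed TPM of the 3 β2 alpha chains (left, the rest being Itgam) and of Itga4, Itga5 and Itgav in their summed TPM (right) in the 6 groups, as mean ± SD with 1 dot per library. The Itgal and Itga4 shares are higher in every LPS library than in any untreated library, and the Itgax share is highest in GILZ TG.

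Between genotypes few members differed. In GILZ KO against WT, 0 of 10 members passed without treatment in edgeR (2 at an unadjusted p under 0.05, 1 in DESeq2, 0 in limma), where 0.0951% of 12621 genes were called, and 0 of 10 after LPS (1 unadjusted, 1 in DESeq2, 0 in limma), where 0.0822% of 12164 genes were called. Of all genes, 1211 of 12621 without treatment and 1171 of 12164 after LPS were at an unadjusted p under 0.05 in edgeR. DESeq2 called 0.626% and 0.822% of the genes it tested. Tsc22d3 itself was not called in edgeR for GILZ KO against WT after LPS. In GILZ TG against WT, Itgax alone passed, without treatment (0.642% of genes called) and after LPS (0.46%). In GILZ KO against GILZ TG, Itgax, Itga4 and Vcam1 passed without treatment (4.94%) and Itgax after LPS (2.6%). Comparisons that share a genotype share its libraries. The medians of the members were between -0.02 and 0.06 without treatment and between -0.07 and 0.18 after LPS on the log2 scale, against -0.004 to 0.007 over all genes tested.

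Itgax was higher in GILZ TG. The 3 GILZ TG libraries, at 17.4, 20.6 and 10.4 TPM without treatment and 13.6, 17.4 and 9.36 TPM after LPS, were above all 6 WT and GILZ KO libraries of the same treatment, which reached at most 7.05 and 6.19 TPM. Against WT the log2 fold change was 1.56 ± 0.23 without treatment (2.96-fold, adjusted p = 0.0194 from edgeR) and 1.57 ± 0.23 after LPS (2.96-fold, adjusted p = 0.0171). GILZ KO against GILZ TG gave -1.63 ± 0.23 (adjusted p = 0.00789) and -1.53 ± 0.24 (adjusted p = 0.0122), and GILZ KO against WT -0.07 ± 0.24 and 0.03 ± 0.25. The 2 highest GILZ TG libraries, replicates 1 and 2, are those with 120 to 170 TPM of stromal, 81.7 to 158 TPM of B cell and plasma cell and 77.8 to 215 TPM of neutrophil markers. Replicate 3, with 15.5 and 16.4 TPM of stromal markers, was lower than both, but above all WT and GILZ KO libraries. Its neutrophil marker sums (29.1 and 36.7 TPM) were also above every WT and GILZ KO library of the same treatment (at most 28.1 and 34.6 TPM). The same held for its B cell and plasma cell marker sums (36.1 and 26 TPM, against at most 35.5 and 22.5 TPM). Of these markers Igkc was at 11.4 and 7.28 TPM in replicate 3, against at most 1.46 and 2.22 TPM in WT and GILZ KO. Ighm (16.6 and 14.3 TPM) and Cd79b (7.88 and 3.99 TPM) were not above the WT and GILZ KO libraries. Without replicates 1 and 2 the values against WT were 0.94 (adjusted p = 0.188) and 1.07 (adjusted p = 0.242), and for GILZ KO against GILZ TG -1.02 (adjusted p = 0.0910) and -1.05 (adjusted p = 0.177), with 1 GILZ TG library assumed to vary like the other groups. The part of other cell types in this difference was not tested. CD11c is also a marker of dendritic cells, of which Flt3 was at most 0.05 TPM and Zbtb46 at most 0.44 TPM in any library, and 6 dendritic cell markers together reached 0.24 to 1.09 TPM.

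The Itgax call against WT also rested on single libraries. Without treatment it was lost without WT replicate 2 (adjusted p = 0.124), GILZ TG replicate 1 (0.0634) or GILZ TG replicate 2 (0.0672), and after LPS without WT replicate 2 (0.114) or 3 (0.0629) or GILZ TG replicate 1 (0.0547) or 2 (0.0724), each as an adjusted p from edgeR. The call of GILZ KO against GILZ TG was lost without GILZ KO replicate 1 (adjusted p = 0.0573 without treatment and 0.0806 after LPS). The log2 fold change kept its direction in all of these. In edgeR fits of only the 6 libraries compared the adjusted p was 0.117 and 0.083 for GILZ TG against WT.

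**Figure D4:**
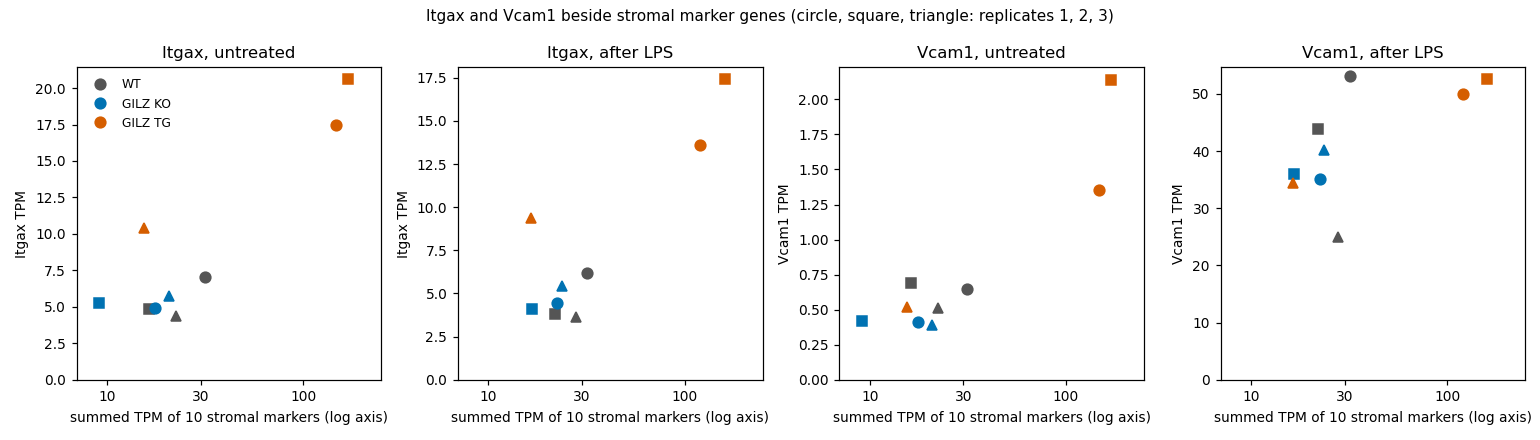
Itgax and Vcam1 in TPM (y axis, from 0) against the summed TPM of 10 stromal fibroblast markers (x axis, log scale) in each of the 9 libraries of a treatment, with symbols for replicates 1, 2 and 3. GILZ TG replicates 1 and 2 lie far to the right (120 to 170 TPM), and replicate 3 lies at 15.5 TPM without treatment, within the range of WT and GILZ KO, and at 16.4 TPM after LPS, the lowest of the 9 libraries. Its Itgax is above all WT and GILZ KO libraries, and its Vcam1 is not.

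Itga4 differed between GILZ KO and GILZ TG without treatment. The GILZ KO libraries (28.7, 28.2 and 27.4 TPM) were above the WT libraries (23.4, 24 and 18.5 TPM), and the GILZ TG libraries (19.4, 18.7 and 18 TPM) overlapped with the lowest WT library. The difference on the log2 scale was 0.46 ± 0.05 for GILZ KO against GILZ TG (1.38-fold, adjusted p = 0.00203 from edgeR), 0.25 ± 0.05 for GILZ KO against WT (adjusted p = 0.199) and -0.22 ± 0.05 for GILZ TG against WT (adjusted p = 0.0916). It was also 0.46 without GILZ TG replicates 1 and 2 (adjusted p = 0.0623). After LPS the same comparisons gave 0.01 ± 0.12, -0.06 ± 0.12 and -0.07 ± 0.12 (adjusted p = 0.979, 0.916 and 0.838).

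Vcam1 without treatment was at 0.39 to 0.42 TPM in GILZ KO and 0.52 to 2.14 TPM in GILZ TG. The groups did not overlap and the log2 fold change of GILZ KO against GILZ TG was -1.74 ± 0.43 (adjusted p = 0.0495 from edgeR). The higher GILZ TG values, 1.35 and 2.14 TPM, were those of replicates 1 and 2 with the high stromal markers, and replicate 3 (0.52 TPM) was within the range of WT (0.51 to 0.69 TPM). Without replicates 1 and 2 the value was -0.39 (adjusted p = 0.597), and GILZ TG against WT went from 1.11 ± 0.41 (adjusted p = 0.258) to -0.24 (adjusted p = 0.846). The call was also lost without any single one of GILZ KO replicates 1 (adjusted p = 0.165), 2 (0.141) and 3 (0.126) or GILZ TG replicates 1 (0.0978) and 2 (0.168), on log2(TPM + 1) (0.132) and log2(TPM + 0.1) (0.118) with limma, and in edgeR fits of the 6 libraries compared (0.0659) or of all 18 (0.071). Without GILZ TG replicate 3, GILZ TG against WT passed (1.49, adjusted p = 0.00845 from edgeR), where 5.16% of all genes were called, against 0.642% with it. The part of other cell types in these values was not tested. After LPS Vcam1 gave -0.31 ± 0.23 for GILZ KO against GILZ TG (adjusted p = 0.522).

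Icam1 after LPS was higher in GILZ TG (1141, 1164 and 1077 TPM) than in WT (879 to 916 TPM) and GILZ KO (916 to 969 TPM) without overlap, but missed the threshold in both comparisons. It differed by 0.33 ± 0.06 on the log2 scale for GILZ TG against WT (1.26-fold, adjusted p = 0.0558 from edgeR) and -0.26 ± 0.06 for GILZ KO against GILZ TG (adjusted p = 0.0543). Replicate 3, without the high stromal markers, was the lowest of the 3 GILZ TG libraries at 1077 TPM. With replicate 3 as the only GILZ TG library the value against WT was 0.30 (adjusted p = 0.399). Without replicate 3 both comparisons passed in edgeR, at 0.34 against WT (adjusted p = 0.0104) and -0.28 for GILZ KO against GILZ TG (adjusted p = 0.0221). In these fits 8.52% and 11.2% of all genes were called, against 0.46% and 2.6% with replicate 3. The call of Icam1 thus depended on the GILZ TG library left out, while its log2 fold change hardly moved. In a fit of all 18 libraries the 2 comparisons had adjusted p = 0.00714 and 0.00855 from edgeR, and DESeq2 gave adjusted p = 6.81e-06 and 0.000423. Without treatment Icam1 lay between 129 and 151 TPM in all 9 libraries.

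The other members did not pass between genotypes. Itgal after LPS was at 33.9 to 45.3 TPM in GILZ KO and 25.2 to 31.5 TPM in WT, which did not overlap, with a log2 fold change of 0.47 ± 0.12 (adjusted p = 0.248 from edgeR and 0.0382 from DESeq2). Itgam was 0.18 ± 0.05 higher in GILZ KO (adjusted p = 0.385) and 0.15 ± 0.05 higher in GILZ TG (adjusted p = 0.224) than in WT without treatment, and Itgb2 was 0.17 ± 0.06 (adjusted p = 0.224) and 0.23 ± 0.07 (adjusted p = 0.175) higher in GILZ TG than in WT without treatment and after LPS. For Itga5, Itgav and Itgb1 the log2 fold changes between genotypes lay between -0.21 and 0.25.

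**Figure D5:**
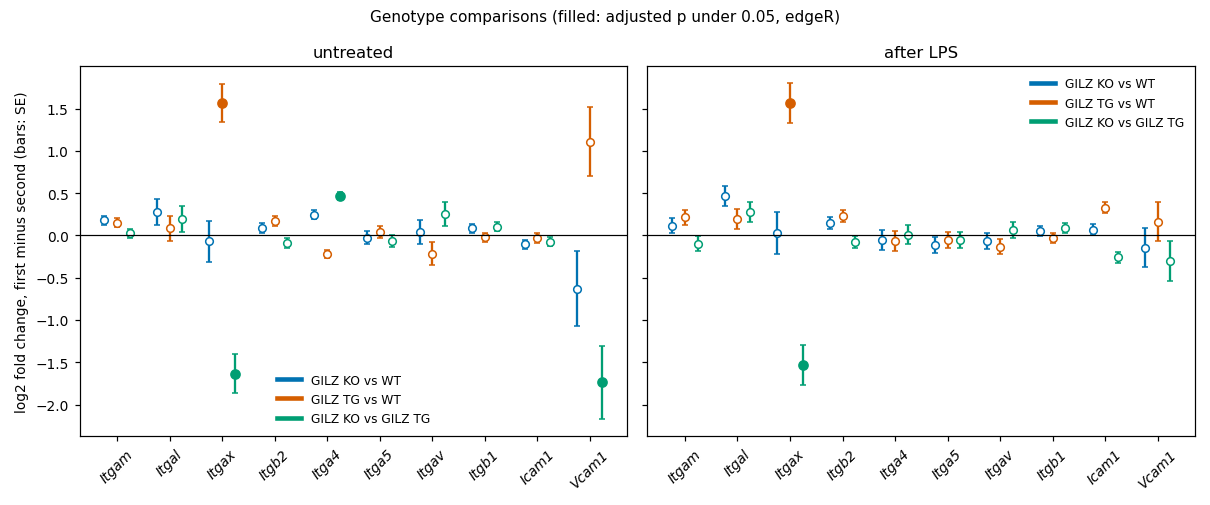
Log2 fold change with standard error (y axis) of each member between genotypes without treatment (left) and after LPS (right), coloured by comparison and filled where the adjusted p was under 0.05. Itgax is filled in the 2 comparisons with GILZ TG on both sides, at 1.56 and 1.57 against WT and at -1.63 and -1.53 for GILZ KO against GILZ TG, and Itga4 and Vcam1 are filled in GILZ KO against GILZ TG without treatment.

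Whether the LPS response itself differed between genotypes was tested in the fit of all 18 libraries. For GILZ KO against WT, GILZ TG against WT and GILZ KO against GILZ TG, 0 members passed in edgeR (1, 1 and 3 at an unadjusted p under 0.05, 0, 1 and 0 in DESeq2, and 0 in limma), where 0.0152%, 0.00759% and 0.121% of 13169 genes were called. Of all 13169 genes, 838, 407 and 1306 were at an unadjusted p under 0.05 in edgeR. DESeq2 called 0.231%, 0.0152% and 1.21% of the genes it tested. The response of Icam1 was larger in GILZ TG than in WT by 0.35 ± 0.08 (adjusted p = 0.738 from edgeR and 0.00724 from DESeq2). That of Itga4 was smaller in GILZ KO than in GILZ TG by 0.48 (-0.48 ± 0.14, adjusted p = 0.213) and than in WT by 0.33 (-0.33 ± 0.14, adjusted p = 0.728). The response of Vcam1 was larger in GILZ KO than in GILZ TG by 1.44 ± 0.60 (adjusted p = 0.412), and by 0.41 without GILZ TG replicates 1 and 2.

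Genes of the wider adhesion pathway were described by 7 lists with 116 genes, of which 99 were tested for LPS. On TMM-normalised counts 49 were higher and 17 lower after LPS in WT, 46 and 21 in GILZ KO and 47 and 15 in GILZ TG, against 33.5% and 35.1% of all genes in WT. Of 16 other leukocyte adhesion molecules and selectins tested, 11 rose and 2 fell in WT, with a median of 1.18. They included E-selectin Sele (0, 0.02 and 0 TPM without and 5.37, 5.7 and 6.11 TPM with LPS, adjusted p = 9.14e-12 from edgeR) and P-selectin Selp (3.73 ± 0.65), selectins being known for the rolling of leukocytes on vessel walls. Selp was low throughout, at 0.02, 0.06 and 0.31 TPM without and 0.62, 0.39 and 1.73 TPM with LPS in WT. Of 25 focal adhesion adaptors and kinases 15 rose and 5 fell. The Src family kinases Src (5.42 ± 1.27 to 48.2 ± 5.39 TPM) and Lyn (96.5 ± 5.06 to 322 ± 32.4 TPM) were among those that rose. Of 20 genes of inside-out signalling 10 rose and 3 fell. Rap1b, a small GTPase that activates integrins, rose by 1.63 ± 0.09, while Sipa1, which inactivates Rap1, and Rapgef3, an exchange factor of Rap1, were lower (-1.59 ± 0.07 and -4.91 ± 0.53). Rapgef3 was at a low level, 2.19 ± 0.259 TPM without and 0.207 ± 0.181 TPM with LPS in WT.

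Of 8 other alpha chains 2 rose and 2 fell, and of 4 other beta chains 1 rose and 1 fell. Itga6, a laminin receptor chain, went from 162 ± 13.6 to 48.3 ± 3.07 TPM, and Itgb8, a beta chain that pairs with Itgav, from 0.08 ± 0.01 to 15.1 ± 2.39 TPM (log2 fold change 8.38 ± 0.45, adjusted p = 2.28e-11 from edgeR). Itgb5, another partner of Itgav, fell by 0.44 (-0.44 ± 0.11, from 60.8 to 30.1 TPM). Itga9 rose by 1.03 ± 0.44 (adjusted p = 0.0451), and Itga2 was called at 0.17 TPM or less. Of 18 extracellular ligands 6 rose and 1 fell. C3, whose fragment iC3b is a ligand of Mac-1, went from 32.1 ± 4.89 to 461 ± 134 TPM, Thbs1 rose by 3.18 ± 0.37 and Emilin1 fell by 1.62 (-1.62 ± 0.11). Of 8 tetraspanins, membrane proteins that associate with integrins, 4 rose and 3 fell, with Tspan32 at -1.35 ± 0.19, Cd151 at -1.16 ± 0.10 and Cd53 at 0.93 ± 0.11. All 9 control genes of the LPS response rose in each genotype, Il6, Ccl5 and Il1b most in WT (11.53, 11.05 and 10.04).

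Between genotypes, where the shares of all genes called were those given above for the members, the lists were as follows. In GILZ KO against WT 0 of 94 genes passed in edgeR without treatment and 0 of 92 after LPS (6 and 4 at an unadjusted p under 0.05, other tools not run on the lists). In GILZ TG against WT 1 of 94 and 1 of 92 passed (25 and 24 at an unadjusted p under 0.05), in both cases Parvg, a parvin of haematopoietic cells that links integrins to actin. It was at 65.1, 57.3 and 60.8 TPM in untreated GILZ TG against 46.5, 40.6 and 39.8 TPM in WT (0.51 ± 0.05, adjusted p = 0.00279 from edgeR), and at 32, 32.5 and 31.4 TPM against 22.7, 21.8 and 23.8 TPM after LPS (0.53 ± 0.07, adjusted p = 0.0111). The 3 GILZ TG libraries were close together and above all WT libraries in both cases. In GILZ KO against GILZ TG 7 of 94 passed without treatment, where 4.94% of all genes were called, and 4 of 92 after LPS, where 2.6% were called (40 and 32 at an unadjusted p under 0.05). Parvg gave -0.61 ± 0.05 (adjusted p = 0.00104 from edgeR) and -0.58 ± 0.07 (adjusted p = 0.00585). Of all 12621 genes without treatment, 1211, 1780 and 3106 were at an unadjusted p under 0.05 in edgeR. These are for GILZ KO against WT, GILZ TG against WT and GILZ KO against GILZ TG. After LPS they were 1171, 1852 and 2328 of 12164.

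The other calls of GILZ KO against GILZ TG without treatment were Raph1 (0.43 ± 0.10), C3 (0.47 ± 0.11), Tspan32 (0.68 ± 0.16), Cd63 (-0.27 ± 0.06), Fermt2 (-2.80 ± 0.67) and Parva (-3.02 ± 0.73), and after LPS Tgfb1i1 (-2.78 ± 0.64), Postn (-3.16 ± 0.69) and Tnc (-2.14 ± 0.48), with adjusted p between 0.0295 and 0.0476 from edgeR. Fermt2, Parva, Tgfb1i1, Postn and Tnc were high in the libraries with high stromal markers. Fermt2, the widely expressed kindlin, was at 1.7, 2.41 and 0.43 TPM in untreated GILZ TG replicates 1, 2 and 3 and Parva at 2.47, 2.89 and 0.33 TPM. After LPS Tgfb1i1 was at 1.75, 2.02 and 0.31 TPM, Postn at 3.23, 5.43 and 0.55 TPM and Tnc at 9.8, 14.7 and 2.56 TPM. Replicate 3 was within the range of GILZ KO for Parva, Postn and Tnc. The part of other cell types was not tested for these genes. Il12b, one of the LPS control genes, was at 41, 51.3 and 53.8 TPM in GILZ KO and 22.7, 18.2 and 12.5 TPM in GILZ TG after LPS (1.43 ± 0.18, adjusted p = 0.00585).

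For each member the 2 genes with the most similar pattern over the 18 libraries were found among 9423 genes with a mean of 5 TPM or more, by Pearson's r of log2(TPM + 1). This is a description, and for members that change with LPS it is mainly set by that contrast. Icam1 was closest to Irf1 (r = 0.999) and H2-Q4 (0.998), Vcam1 to Slc31a2 (0.997) and Cxcl16 (0.996), Itga4 to Tet2 and Usp25 (0.996 each), Itgal to Nfkb1 and Slfn3 (0.985 each), Itga5 to Dock10 and Nrp2 (0.983 each) and Itgav to Gna13 (0.989) and Ktn1 (0.988). Itgb2 was close to Naxe (0.966), Itgb1 closest to Eif2s3x (0.937) and Arfgef1 (0.935) and Itgam to Xpo6 (0.922) and Rab43 (0.886). Itgax differed between genotypes and was not called for LPS in the fit of all 18 libraries without a replicate block. It was closest to Trf (0.949), which encodes transferrin, and to Igkc (0.932), an immunoglobulin light chain. Igkc was at 42.3, 97.4 and 11.4 TPM in untreated GILZ TG replicates 1, 2 and 3 and at 1.46 TPM or less in untreated WT and GILZ KO. After LPS it was at 43.1, 93.2 and 7.28 TPM in GILZ TG and at 2.22 TPM or less in WT and GILZ KO. The points share their libraries, and GILZ TG replicates 1 and 2 were the highest for both Itgax and Igkc.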

How the data were processed

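RNA-seq (poly(A) RNA, directional kit, single-end) of BMMs was used, with 3 libraries in each of 6 groups taken from the labels. The authors mapped reads to GRCm38 with grape-nf and deposited, per library and gene, expected counts in the column layout of RSEM gene results, which are not normalised, and TPM, scaled by the authors by transcript length and total. Per the labels, FastQC 0.11.2 and DESeq2 1.40.2 were used. Of the deposited tables of the authors' comparisons, gene names and identifiers were used to find the members. Their fold changes and p-values were not used. Expected counts were rounded, filtered by filterByExpr, scaled by TMM, and fitted in edgeR 4.0.16 under R 4.3.3 (quasi-likelihood F-test), with Benjamini-Hochberg adjustment over 12621 genes without treatment, 12164 after LPS and 13169 for LPS comparisons and differences of responses. Genotypes were compared in a fit of the 9 libraries of that treatment, and LPS in a fit of all 18. Deviations of untreated and LPS libraries with the same number correlated above 0.1 in all 3 GILZ TG pairs (0.266, 0.397 and 0.605) and in 1 of the 6 other pairs (WT replicate 1, 0.264). Libraries with different numbers were not compared, so these values cannot show a pairing, and no label gives one. P-values measure the spread between these libraries.

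Depth was 14583055 to 38557029 reads per library, so genes with few reads, such as Vcam1 without treatment, are less precise. Alternatives were DESeq2 1.42.0, limma 3.58.1 on log2(TPM + 1) and log2(TPM + 0.1), DESeq2 size factors in edgeR, no filter, a stricter filter of 10 counts, a replicate block, only the 6 libraries compared, all 18 libraries, each library left out in turn and shares of expected counts. Library totals without TMM, and leaving out GILZ TG replicates 1 and 2 together, were added after seeing the data. The fits were tested on simulated data. The members and lists were chosen with earlier results of these data known. Named were all members, Tsc22d3 and Lyz2, the list genes called between genotypes, the 3 largest called changes per list in WT after LPS, and the 2 most similar genes per member, except a few that are not reported here. Symbols were given for 37570 identifiers. Promoter sequences are from RefSeq, and figures were drawn with matplotlib.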

Additional observations from a re-analysis of the deposited data

How the results depend on the processing

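The calls of Icam1, Vcam1, Itgal, Itga4, Itga5 and Itgav after LPS held in all 3 genotypes under every alternative run. The direction of Itgam, Itgax, Itgb1 and Itgb2 turned with the scale. On log2(TPM + 1) the log2 changes in WT, GILZ KO and GILZ TG were -0.171, -0.294 and -0.151 for Itgam, -0.224, -0.161 and -0.235 for Itgax, -0.0471, -0.117 and -0.0746 for Itgb1 and -0.448, -0.425 and -0.403 for Itgb2. On log2(TPM + 0.1) they were -0.172, -0.295 and -0.152 for Itgam, -0.268, -0.19 and -0.25 for Itgax, -0.0472, -0.118 and -0.0748 for Itgb1 and -0.448, -0.426 and -0.404 for Itgb2. On library totals without TMM they were -0.245, -0.299 and -0.19 for Itgam, -0.308, -0.187 and -0.295 for Itgax, -0.1, -0.117 and -0.118 for Itgb1 and -0.492, -0.419 and -0.44 for Itgb2. Here the scaling is by construction what changed. With no filter on low counts the call of Itgb2 in WT was lost (adjusted p = 0.138), as it was in GILZ TG with only the 6 libraries compared (adjusted p = 0.0509), where Itgax in GILZ KO gained one (adjusted p = 0.00421). Leaving out 1 library at a time, 8 to 9 members were called in each LPS comparison, where 63.9% to 66.2% of all genes were called.

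Whether the replicate numbers pair the libraries cannot be told from the correlations, because only libraries with the same number were compared. Deviations from the group mean correlated above 0.1 in 2 of 18 pairs across genotypes that share a number (-0.136 to 0.241) and in 4 of 9 pairs of untreated and LPS libraries of a genotype (-0.033 to 0.605), among them all 3 of GILZ TG. In GILZ TG replicates 1, 2 and 3 the stromal marker sums were 147, 170 and 15.5 TPM without and 120, 160 and 16.4 TPM with LPS. The Itgax differences without treatment and after LPS may thus rest on the same mice and may not be independent. In fits with a replicate block, LPS comparisons and differences of responses had each genotype and replicate number as the block. Genotype comparisons had the replicate number across genotypes. Members called were 10 in each LPS comparison, where Itgax gained the call (0.367, 0.448 and 0.375). Of all genes 72.3%, 71.5% and 72.3% were called there in WT, GILZ KO and GILZ TG. For GILZ KO against WT, GILZ TG against WT and GILZ KO against GILZ TG they were 0, 1 and 3 without treatment (0.0713%, 0.658% and 7.17%). After LPS they were 0, 1 and 1 (0.0904%, 0.477% and 2.24%). For the 3 differences of responses they were 0 (0.0607%, 0.0152% and 1.09%). The block changed no other call of a member.

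Between genotypes the counts of members called moved as follows, and the cause was not tested. For GILZ KO against GILZ TG without treatment, 2 in place of 3 members were called on log2(TPM + 1), on log2(TPM + 0.1), with only the 6 libraries compared and with all 18 in one fit, each time without Vcam1. Of all genes 2.12%, 2.09%, 4.31% and 4.3% were called in these fits. With DESeq2 they were 1 (Itga4) for GILZ KO against WT and 2 for GILZ TG against WT without treatment (0.626% and 2.52% of genes tested). After LPS they were 1 (Itgal), 2 and 2 for GILZ KO against WT, GILZ TG against WT and GILZ KO against GILZ TG (0.822%, 2.25% and 5.88%). For the response of GILZ TG against WT they were 1 (Icam1, 0.0152%). With no filter on low counts they were 1 for GILZ KO against WT and 2 for GILZ TG against WT after LPS (0.44% and 2.06%). With all 18 libraries in one fit they were 2 (Itgax and Icam1) for GILZ TG against WT and for GILZ KO against GILZ TG after LPS (1.91% and 6.04%). For GILZ TG against WT they were 0 without treatment on log2(TPM + 0.1) (0.254%), and 0 without treatment and 0 after LPS with only the 6 libraries compared (0.16% and 0.124%). Without GILZ TG replicates 1 and 2, where 1 GILZ TG library was left, they were 0 in all 4 genotype comparisons with GILZ TG, and Vcam1 turned to -0.244 in GILZ TG against WT. Leaving out 1 library at a time gave 0 to 2 and 0 to 2 for GILZ TG against WT without treatment and after LPS, and 1 to 3 and 0 to 2 for GILZ KO against GILZ TG. Of all genes 0.124% to 5.16% and 0.12% to 8.52% were called in the first comparison, and 0.613% to 10.1% and 0.192% to 11.2% in the second.

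Shares of alpha chains on expected counts instead of TPM, which by construction give long transcripts more weight, were in untreated WT, GILZ KO and GILZ TG and then in the same order after LPS 13.6%, 15.6%, 12.2%, 26.7%, 27.2% and 26.8% for Itga4 and 30.2%, 30.6%, 27.5%, 28.8%, 29.3% and 28% for Itgav. For Itga5 they were 56.2% and 53.8% in untreated WT and GILZ KO and 44.5%, 43.5% and 45.2% after LPS, and for Itgal 2.03% in untreated WT and 8.14% in GILZ TG after LPS. The other shares moved by less than 1 SD. Depth limits Vcam1 without treatment (15 to 116 reads) and Itgax (133 to 1336 reads).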
